A study of Mus musculus with 12 samples.

Results

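A set of 9 genes, picked because their RNA was high in naive CD4 T cells or lost in antigen-experienced ones, was followed across 4 sorted populations of splenic CD4 T cells. The genes were Lypd6b, Pdlim4, Amigo2, Dapl1, Txk, Tent5a, Ampd1, Cd55 and Nsg2, 9 of 18193 genes with a probe set on the array. Every probe set that the array's annotation gave to one of these symbols alone was taken, 13 in all. The choice rested on the contrast of naive with CD44+ arrays, so the members' values in that contrast are given as a description with no test. For differences between the CD44+ populations the fit's adjusted p-values are given. Loss in these arrays had also entered the choice, so for the members such p-values describe the fit and are no independent evidence. This holds for every call of a member between CD44+ populations given below.

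All cells came from spleens of female MRL/Faslpr mice, a lupus-prone strain whose death receptor gene Fas carries the lpr mutation, and all shared a TCRb+ CD4+ B220- gate. Naive cells (CD62Lhi CD44lo) came from young mice aged 6 to 8 weeks. The CD44+ cells came from aged mice of 16 to 24 weeks and were split into CD62Lhi PSGL1hi, CD62Llo PSGL1hi and CD62Llo PSGL1lo cells. CD62L and CD44 are surface markers of the gates, and PSGL1, encoded by Selplg, is a selectin ligand. Each population had 3 arrays, and every group carried the Faslpr genotype. Population and age cannot be told apart in any comparison with naive cells. For CD62Llo PSGL1hi cells the description given with the samples disagrees with the titles, and the titles were followed. The titles call the 3 arrays technical replicates while the design text speaks of separate sorts, so p-values measure the spread between these arrays, which may be technical.

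Naive T cells circulate through lymphoid organs in a resting state, and on activation they switch off genes of quiescence and homing while they acquire effector functions. High CD44 marks cells that have met antigen. In this strain the PSGL1lo cells are known as extrafollicular helpers of B cells.

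The RefSeq promoter table (build GRCm38.p6) held 7 of the 9 genes, with 10 start sites among them. The 250 bases before the start are shown on each gene's own strand, from 5′ to 3′, for 6 genes that stand for the patterns described below. The RNA of Pdlim4, Amigo2 and Dapl1 was low in every CD44+ population, that of Txk stepped down from one to the next, and that of Tent5a and Cd55 was low in the PSGL1lo cells. Capitals mark matches to short motifs of transcription factor families known from T cells.
Pdlim4, chr11:54069018-54069267, minus strand: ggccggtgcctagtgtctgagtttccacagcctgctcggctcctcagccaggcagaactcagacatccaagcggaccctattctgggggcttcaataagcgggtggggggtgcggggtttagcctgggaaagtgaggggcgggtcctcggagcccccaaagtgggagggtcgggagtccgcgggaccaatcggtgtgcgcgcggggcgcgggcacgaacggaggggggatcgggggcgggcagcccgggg
Amigo2, chr15:97247288-97247537, minus strand: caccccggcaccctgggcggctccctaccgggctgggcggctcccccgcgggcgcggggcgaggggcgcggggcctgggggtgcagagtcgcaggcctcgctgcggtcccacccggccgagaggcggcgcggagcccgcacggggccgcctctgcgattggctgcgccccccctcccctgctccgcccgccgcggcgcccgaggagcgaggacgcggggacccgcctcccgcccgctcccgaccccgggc
Dapl1, chr2:59484403-59484652, plus strand: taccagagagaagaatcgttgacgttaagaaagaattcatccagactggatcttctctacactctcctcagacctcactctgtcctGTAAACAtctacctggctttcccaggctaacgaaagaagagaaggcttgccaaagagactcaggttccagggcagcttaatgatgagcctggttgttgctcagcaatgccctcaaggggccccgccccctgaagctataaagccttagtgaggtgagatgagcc
Txk, chr5:72752778-72753027, minus strand: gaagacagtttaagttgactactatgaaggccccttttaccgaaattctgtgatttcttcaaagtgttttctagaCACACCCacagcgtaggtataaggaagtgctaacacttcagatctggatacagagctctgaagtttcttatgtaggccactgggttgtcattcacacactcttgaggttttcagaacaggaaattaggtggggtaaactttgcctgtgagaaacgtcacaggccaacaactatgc
Tent5a, chr9:85327151-85327400, minus strand: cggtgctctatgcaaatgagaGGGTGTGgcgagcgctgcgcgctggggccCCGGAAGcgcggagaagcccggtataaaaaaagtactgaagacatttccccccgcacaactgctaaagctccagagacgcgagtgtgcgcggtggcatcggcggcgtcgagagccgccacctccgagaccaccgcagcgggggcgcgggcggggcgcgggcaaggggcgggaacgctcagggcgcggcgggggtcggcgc
Cd55, chr1:130462745-130462994, minus strand: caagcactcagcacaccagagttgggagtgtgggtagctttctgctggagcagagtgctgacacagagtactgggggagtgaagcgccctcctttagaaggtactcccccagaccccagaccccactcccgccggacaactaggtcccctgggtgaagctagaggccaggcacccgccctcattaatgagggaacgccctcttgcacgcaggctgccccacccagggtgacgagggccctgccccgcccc

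The motifs, searched on both strands, were TCF/LEF (CTTTGAT or CTTTGTT), forkhead (TGTTTAC), KLF (CACACCC), RUNX (TGTGGTT) and ETS (CCGGAAG). The capitals in Dapl1 are the forkhead letters on the opposite strand, 164 bases before the start. Forkhead letters occurred in 3.17% of 32851 windows of this length. In Txk the capitals are a KLF match 175 bases before the start. In Tent5a they are a KLF match on the opposite strand at 229 bases and an ETS match at 200 bases. KLF and ETS letters occurred in 6.93% and 6.91% of all windows. A second Txk start held a RUNX match and an Nsg2 start a TCF/LEF match, found in 4.4% and 8.06% of all windows. The windows shown for Pdlim4, Amigo2 and Cd55 held none of these letters. Base composition differed among the members, with 84.0% G and C in Amigo2, 69.2% in Pdlim4, 50.0% in Dapl1 and 42.8% in Txk, against a median of 52.4% over all windows.

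The genes behind the gates matched the sort. Ratios of Cd44 lay between 0.0752 and 0.0842 in naive arrays and between 0.772 and 1.40 in CD44+ arrays. Ratios of Selplg lay between 0.118 and 0.153 in PSGL1lo arrays and between 0.906 and 1.15 elsewhere. A ratio is the signal of a probe set relative to its median across the 12 arrays. It compares arrays for 1 probe set, gives no level of one gene against another, and cannot show whether a marker was present. The mean ratio of 7 CD4 T cell markers lay between 0.836 and 0.904 in naive and between 0.898 and 0.982 in CD62Lhi PSGL1hi arrays. It lay between 1.01 and 1.1 in CD62Llo PSGL1hi and between 0.956 and 1.15 in PSGL1lo arrays. Of these 7 genes 4 were higher and 0 lower in CD44+ than in naive cells, against 11.7% and 12.6% of all genes. The mean ratio of 8 macrophage, monocyte and neutrophil markers lay between 4.12 and 4.40 in naive arrays and between 0.772 and 1.19 in CD44+ arrays. Of these 8 genes 5 were lower in CD44+ cells, against 12.6% of all genes. They were led by S100a9 (log2 difference -3.80 ± 0.16 SE) and S100a8 (-3.91 ± 0.25). These neutrophil genes carried the mean, with naive ratios of 13.4 and 13.1, while the other markers had mean naive ratios from 1.01 (Csf1r) to 1.80 (Lyz2), and Csf1r, Adgre1 and Cd14 had no call. Among other markers, 2 of 5 CD8 T and NK cell genes were lower, and 2 of 7 B cell genes were lower and 2 higher. Further, 2 of 3 plasma cell genes were higher, and 1 of 4 erythroid and platelet genes was lower. Of all genes 12.6% were lower and 11.7% higher in CD44+ cells, and nothing is read from these small counts. In bulk RNA fewer cells of a type and less RNA per cell cannot be told apart, and the part of other cell types in the members' values was not tested.

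The members had been picked for high naive values or loss in CD44+ arrays, and they differed in how far apart these were. For Lypd6b, Pdlim4, Amigo2, Dapl1 and Ampd1 the lowest naive array lay at more than 2 times the highest CD44+ array, as it did for 0.511% of all genes. Naive arrays lay above all 9 CD44+ arrays for 7 of the 9 genes, these 5 with Txk and Tent5a, as they did for 10.2% of all genes. Cd55 and Nsg2 overlapped between naive and CD44+ arrays, and their values go against the name of naive-restricted genes. Tent5a bears the name poorly too, as its lowest naive array lay at 1.17 times its highest CD44+ array. Its signal in CD62Lhi PSGL1hi cells was 70.5% of naive. The choice of members used this contrast, and nothing is read from these counts. Over the 9 genes the median log2 difference from naive was -3.08 in CD62Lhi PSGL1hi, -3.30 in CD62Llo PSGL1hi and -4.48 in PSGL1lo cells. The median over all genes was between -0.07 and -0.05 in each.

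**Figure D1:**
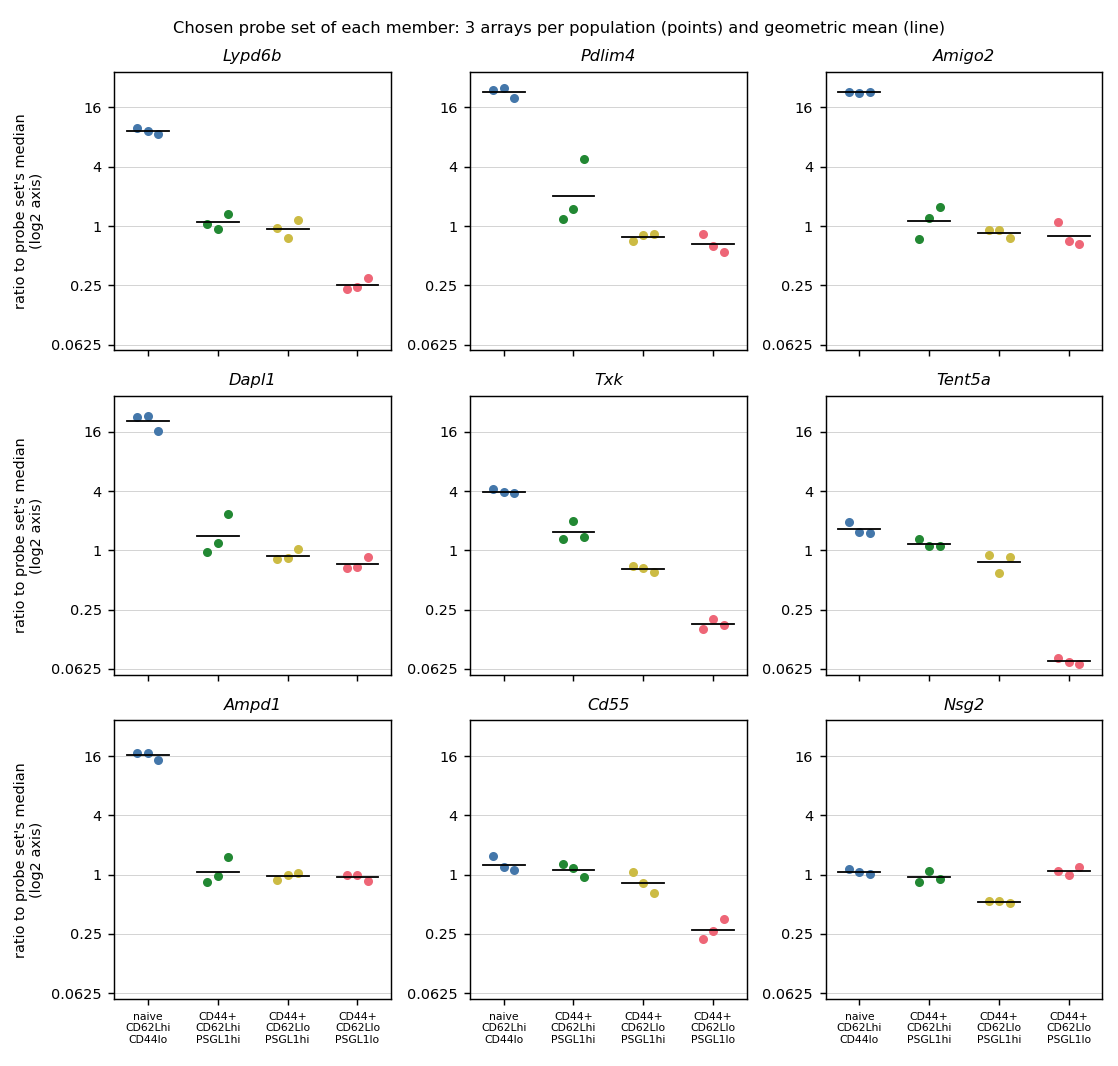
Ratio of the chosen probe set of each member to its own median over the 12 arrays (log2 axis) in the 4 populations, with points for single arrays (3 per population) and a line for the geometric mean. Naive points stand far above all others for Lypd6b, Pdlim4, Amigo2, Dapl1 and Ampd1, Txk steps down through the populations, Tent5a and Cd55 are low in CD62Llo PSGL1lo arrays, and Nsg2 is low in CD62Llo PSGL1hi arrays.

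Amigo2, Lypd6b and Cd55 encode proteins of the cell surface. Amigo2 belongs to a family of adhesion proteins with leucine-rich repeats. Its ratios were 22.7, 22.6 and 23.1 in naive arrays, 0.746, 1.21 and 1.56 in CD62Lhi PSGL1hi, 0.909, 0.910 and 0.762 in CD62Llo PSGL1hi, and 1.09, 0.700 and 0.661 in PSGL1lo arrays. The CD44+ populations overlapped with each other and kept 4.91%, 3.76% and 3.49% of the naive signal. A second Amigo2 probe set, whose suffix marks possible cross-hybridisation, did not show this loss. It ranged from 0.855 to 1.28 over the 12 arrays, and its naive and CD62Lhi PSGL1hi arrays overlapped.

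Lypd6b, a membrane-anchored protein of the Ly6 family, was low in all CD44+ cells and lower still in PSGL1lo cells. Naive arrays had ratios of 9.86, 9.30 and 8.71, CD62Lhi PSGL1hi arrays 1.06, 0.938 and 1.33, CD62Llo PSGL1hi arrays 0.945, 0.757 and 1.16, and PSGL1lo arrays 0.228, 0.240 and 0.295. Both PSGL1hi populations overlapped, and every PSGL1lo array lay below them. PSGL1lo cells had a 3.72-fold lower signal than CD62Llo PSGL1hi cells (log2 difference -1.90 ± 0.16 SE, limma adjusted p = 3.27e-06). Between the PSGL1hi populations the difference was -0.22 ± 0.16 (adjusted p = 0.76).

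Cd55 encodes decay-accelerating factor, which protects cells from complement by breaking up convertases on their surface. Its chosen probe set had ratios of 1.54, 1.19 and 1.11 in naive, 1.28, 1.18 and 0.934 in CD62Lhi PSGL1hi, 1.07, 0.828 and 0.649 in CD62Llo PSGL1hi, and 0.223, 0.265 and 0.355 in PSGL1lo arrays. Naive and CD62Lhi PSGL1hi arrays overlapped, and the PSGL1lo arrays stood below all others. PSGL1lo cells kept 21.8% of the naive signal, and CD62Lhi PSGL1hi cells 88.6%. The other Cd55 probe sets had the same order, with 10.5% and 12.4% of the naive signal left in PSGL1lo cells. From CD62Llo PSGL1hi to PSGL1lo cells the log2 differences of the 3 probe sets were -1.59 ± 0.20, -2.52 ± 0.22 and -2.37 ± 0.16 (adjusted p = 0.000128, 3.28e-06 and 4.61e-07). After quantile normalization the second of these differences was -1.46 (adjusted p = 0.0249). Such loss was a ground for choosing members, so these p-values describe the fit only. Between the PSGL1hi populations the 3 differences were -0.43, -0.48 and -0.42, with no call (adjusted p from 0.41 to 0.543).

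Txk and Pdlim4 act in signalling and at the cytoskeleton. Txk, also called Rlk, is a Tec family kinase that acts downstream of the T cell receptor. Its ratios were 4.15, 3.90 and 3.79 in naive arrays, 1.31, 1.98 and 1.36 in CD62Lhi PSGL1hi, 0.692, 0.667 and 0.598 in CD62Llo PSGL1hi, and 0.157, 0.202 and 0.173 in PSGL1lo arrays. No population overlapped with the next, and the CD44+ populations kept 38.6%, 16.5% and 4.47% of the naive signal. Both steps between CD44+ populations passed the threshold. CD62Llo against CD62Lhi cells at high PSGL1 gave -1.23 ± 0.15 (adjusted p = 0.000683), and PSGL1lo against PSGL1hi cells at low CD62L gave -1.88 ± 0.15 (adjusted p = 1.32e-06). After quantile normalization the first was -2.34 (adjusted p = 4.43e-05), and the second was -0.51 and no longer called (adjusted p = 0.156).

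Pdlim4 encodes a PDZ and LIM domain protein that binds alpha-actinin on actin filaments. It had ratios of 24.1, 25.0 and 20.2 in naive, 1.17, 1.47 and 4.78 in CD62Lhi PSGL1hi, 0.699, 0.807 and 0.831 in CD62Llo PSGL1hi, and 0.822, 0.622 and 0.539 in PSGL1lo arrays. Both CD62Llo populations overlapped, and each CD62Lhi PSGL1hi array lay above them. PSGL1lo against CD62Lhi PSGL1hi cells gave -1.63 ± 0.37 (adjusted p = 0.00882). That difference was -1.01 without CD62Lhi PSGL1hi replicate 3 (adjusted p = 0.00158) and was not called with only these 2 groups in the fit (adjusted p = 0.0762). CD62Llo PSGL1hi against CD62Lhi PSGL1hi cells gave -1.38 ± 0.37 (adjusted p = 0.12), with a range over the fits without 1 array from -1.77 without CD62Lhi PSGL1hi replicate 1 (adjusted p = 0.0267) to -0.76 without its replicate 3 (adjusted p = 0.0703).

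Ampd1 and Tent5a encode enzymes. AMP deaminase 1, the product of Ampd1, converts AMP to IMP in the purine nucleotide cycle and is best known from skeletal muscle. Ratios of Ampd1 were 17.2, 17.4 and 14.7 in naive, 0.848, 0.957 and 1.50 in CD62Lhi PSGL1hi, 0.872, 1.00 and 1.05 in CD62Llo PSGL1hi, and 0.996, 0.999 and 0.859 in PSGL1lo arrays. The CD44+ populations overlapped throughout, at 6.52%, 5.92% and 5.80% of the naive signal. The 95% interval of the difference between PSGL1lo and CD62Llo PSGL1hi cells ran from -0.40 to 0.34 on the log2 scale.

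Tent5a, named Fam46a in older annotation, encodes a poly(A) polymerase. Naive arrays had ratios of 1.95, 1.54 and 1.51, CD62Lhi PSGL1hi arrays 1.29, 1.11 and 1.12, CD62Llo PSGL1hi arrays 0.894, 0.588 and 0.864, and PSGL1lo arrays 0.081, 0.074 and 0.0693. The CD44+ populations kept 70.5%, 46.4% and 4.5% of the naive signal, in the same order. The 4 populations did not overlap, with a wide gap above the PSGL1lo arrays. There the signal was 10.3-fold below that of CD62Llo PSGL1hi cells (-3.36 ± 0.16, adjusted p = 8e-09), and the difference was -2.14 after quantile normalization (adjusted p = 0.00548). Loss in CD44+ arrays was a ground for choosing members, so these p-values are no independent evidence of it. CD62Llo PSGL1hi against CD62Lhi PSGL1hi cells gave -0.60 ± 0.16 (adjusted p = 0.0984), which passed the threshold with a replicate block (adjusted p = 0.0247).

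Dapl1 and Nsg2 have less settled roles in T cells. Dapl1 encodes a small protein related to the death-associated protein Dap. Its ratios were 22.4, 23.2 and 16.4 in naive, 0.970, 1.18 and 2.35 in CD62Lhi PSGL1hi, 0.808, 0.826 and 1.03 in CD62Llo PSGL1hi, and 0.664, 0.672 and 0.847 in PSGL1lo arrays. Neighbouring CD44+ populations overlapped. PSGL1lo against CD62Lhi PSGL1hi cells gave -0.94 ± 0.26 (adjusted p = 0.0265). The call was lost without CD62Lhi PSGL1hi replicate 3 (-0.56, adjusted p = 0.0592) and without PSGL1lo replicate 1 (adjusted p = 0.0707) or 2 (adjusted p = 0.0678). It was also lost after quantile normalization (adjusted p = 0.0541) and with only these 2 groups in the fit (adjusted p = 0.111).

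Nsg2, a vesicle trafficking protein first studied in neurons, followed another order. Its chosen probe set had ratios of 1.13, 1.06 and 1.01 in naive, 0.846, 1.09 and 0.895 in CD62Lhi PSGL1hi, 0.539, 0.533 and 0.511 in CD62Llo PSGL1hi, and 1.09, 0.992 and 1.21 in PSGL1lo arrays. The CD62Llo PSGL1hi arrays lay below the other 9, which overlapped with each other. CD62Llo PSGL1hi against CD62Lhi PSGL1hi cells gave -0.83 ± 0.11 (adjusted p = 0.00141). PSGL1lo against CD62Llo PSGL1hi cells gave 1.05 ± 0.11 (adjusted p = 2.22e-05). After quantile normalization these differences were -2.27 and 2.48 (adjusted p = 5.9e-07 and 6.06e-08).

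The other Nsg2 probe set had ratios from 1.16 to 1.44 in naive, 1.02 to 1.71 in CD62Lhi PSGL1hi, 0.484 to 0.771 in CD62Llo PSGL1hi and 0.737 to 0.982 in PSGL1lo arrays. It too was lower at low than at high CD62L among PSGL1hi cells (-1.10 ± 0.20, adjusted p = 0.0123), by -2.12 after quantile normalization (adjusted p = 0.0147). This call was lost with only the 2 groups in the fit (adjusted p = 0.0677), without CD62Lhi PSGL1hi replicate 1 (0.0549) or 3 (0.0564), and without CD62Llo PSGL1hi replicate 2 (0.0631). Between PSGL1lo and CD62Llo PSGL1hi cells this Nsg2 probe set was at 0.47 ± 0.20 (adjusted p = 0.221), and it was called with a replicate block (0.0089) and, at 1.43, after quantile normalization (0.0478). Between PSGL1lo and CD62Lhi PSGL1hi cells it was at -0.63 ± 0.20 (adjusted p = 0.0605), where the chosen probe set was at 0.22 ± 0.11 (adjusted p = 0.285). The former was called with a replicate block (adjusted p = 0.000864), without replicate 2 of CD62Lhi PSGL1hi (0.0108) or of CD62Llo PSGL1hi cells (0.0361).

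**Figure D2:**
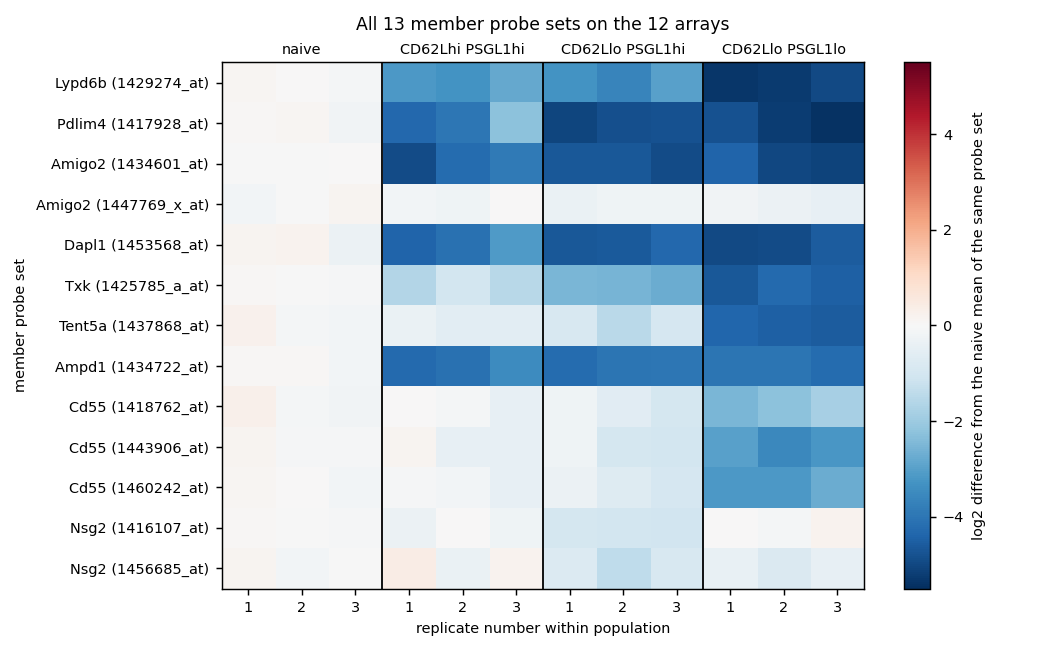
Log2 difference of each of the 13 member probe sets (rows) from its own naive mean on each of the 12 arrays (columns, grouped by population). Blue, for lower values, fills all CD44+ columns for Lypd6b, Pdlim4, Dapl1, Ampd1 and 1 Amigo2 probe set, and is deep in CD62Llo PSGL1lo columns for Txk and Tent5a, while the CD62Lhi PSGL1hi replicate 3 column is paler than its neighbours for Pdlim4 and Dapl1.

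In CD62Lhi PSGL1hi replicate 3 several members were higher than on the other CD44+ arrays. It had the highest of the 9 CD44+ values for Lypd6b, Pdlim4, Amigo2, Dapl1 and Ampd1, the same 5 genes whose naive values stood farthest apart. For Pdlim4 it was at 4.78 against a mean of 1.32 on the other arrays of its population, 15.9% of the way to the naive mean. For Dapl1, Lypd6b, Ampd1 and Amigo2 it lay 6.50%, 4.03%, 3.86% and 2.63% of the way. Txk and Tent5a went the other way, with ratios of 1.36 and 1.12 against means of 1.64 and 1.20 on the other arrays of its population. Cd55 and Nsg2 by their chosen probe sets were also below that mean. Its Cd44 ratio of 0.772 was the lowest of the CD44+ arrays, beside 0.972 and 0.865 on the other arrays of its population. Why this array differed was not tested. For CD62Llo PSGL1hi against CD62Lhi PSGL1hi cells, leaving this array out moved Dapl1 from -0.65 to -0.28, Amigo2 from -0.39 to -0.15, Lypd6b from -0.22 to -0.08 and Ampd1 from -0.14 to 0.11, all without a call.

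Between the CD44+ populations the following members were called. From CD62Llo PSGL1hi to PSGL1lo cells, 4 of the 9 genes were lower (Lypd6b, Txk, Tent5a and Cd55) and 1 was higher (Nsg2), where 5.64% of all genes were lower and 3.97% higher. From CD62Lhi PSGL1hi to CD62Llo PSGL1hi cells 2 of 9 were lower (Txk and Nsg2), against 1.1% of all genes. From CD62Lhi PSGL1hi to PSGL1lo cells 6 of 9 were lower (Lypd6b, Pdlim4, Dapl1, Txk, Tent5a and Cd55), against 7.37%. Over the 13 probe sets these counts were 6 lower and 1 higher, 3 lower, and 8 lower. The shares of all probe sets called in these directions were 4.97% and 3.41%, 0.839%, and 6.27%. Median differences of the 9 genes were -0.29, -0.60 and -1.63, beside 0.01, -0.01 and 0.00 over all genes. Because the PSGL1lo and other CD44+ arrays had entered the choice of the members, these counts are not independent of it, and nothing is read from how they compare with all genes.

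**Figure D3:**
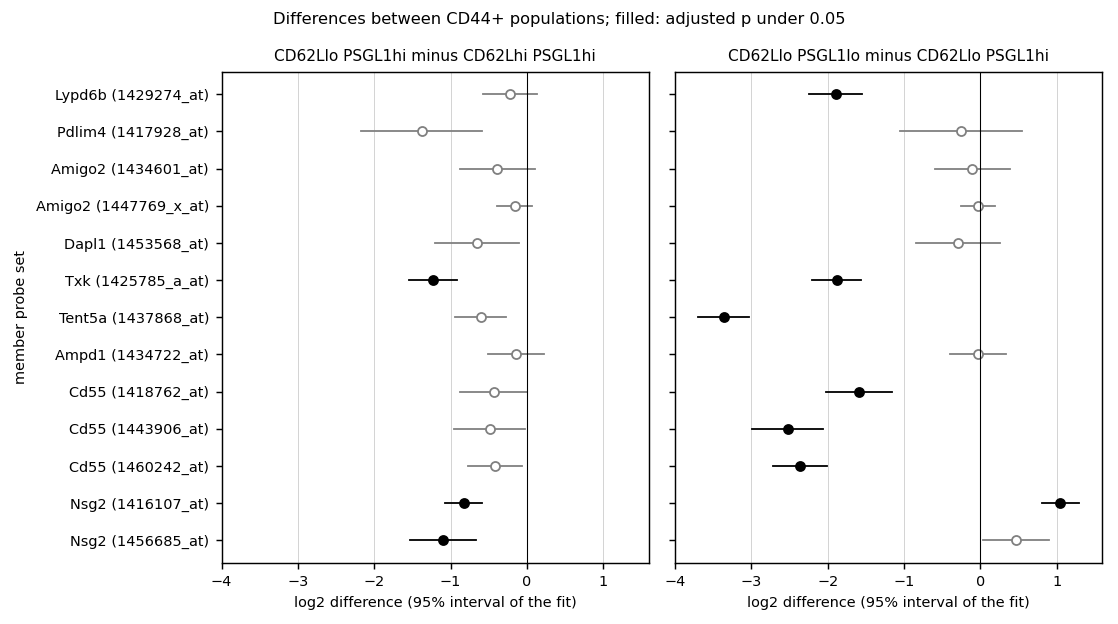
Log2 difference of each member probe set (rows) between CD44+ populations in 2 panels, with its 95% interval from the fit on 12 arrays, where filled points have an adjusted p under 0.05. In the PSGL1lo panel the filled points of Lypd6b, Txk, Tent5a and Cd55 lie between -3.36 and -1.59 and 1 Nsg2 probe set lies at 1.05, and in the CD62L panel Txk and both Nsg2 probe sets are filled.

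Ampd1 and Amigo2 passed the threshold in no comparison of CD44+ populations in the fit on all 12 arrays. Between PSGL1lo and CD62Lhi PSGL1hi cells the chosen Amigo2 probe set was at -0.49 ± 0.23 (adjusted p = 0.232), with a range over the fits without 1 array from -0.79 without CD62Lhi PSGL1hi replicate 1 (adjusted p = 0.0174) to -0.26 without its replicate 3 (adjusted p = 0.59). Ampd1 was at -0.17 ± 0.17 there (adjusted p = 0.682), with a 95% interval from -0.54 to 0.20. Whether the CD44+ signals of these genes lay above the array's background is unknown.

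Relatives of the members by gene family made a list of 21 genes, 18 of which had a probe set. In the mean of the 3 CD44+ populations 4 were lower and 2 higher than in naive cells, where 12.6% of all genes were lower and 11.7% higher. Their median difference was -0.11, beside -0.06 over all genes. Pdlim1, another PDZ and LIM protein that binds alpha-actinin, fell by 2.96 ± 0.19 (adjusted p = 3.79e-08). Its mean ratios were 6.33 in naive, 1.59 in CD62Lhi PSGL1hi, 0.827 in CD62Llo PSGL1hi and 0.441 in PSGL1lo cells. The step between the CD62Llo populations passed the threshold (-0.93 ± 0.23, adjusted p = 0.0206). That from CD62Lhi PSGL1hi to CD62Llo PSGL1hi cells did not (-0.88 ± 0.23, adjusted p = 0.108). Pdlim2, Pdlim3, Pdlim5 and Pdlim7 lay between 0.03 and 0.11 with no call.

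Tec, a kinase of the same family as Txk, fell by 0.88 ± 0.10 in the mean of the CD44+ populations (adjusted p = 2.07e-05). Against naive it was at 0.40 ± 0.13 in CD62Lhi PSGL1hi cells (adjusted p = 0.0472) and at -2.03 ± 0.13 in PSGL1lo cells (adjusted p = 3.1e-08). Like Txk, Tec was lower at low than at high CD62L among PSGL1hi cells (-1.38 ± 0.13, adjusted p = 8.28e-05) and lower again in PSGL1lo cells (-1.05 ± 0.13, adjusted p = 8.48e-05). Btk and Bmx, other kinases of the family, were at -0.16 and -0.11 with no call.

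Dap, the relative of Dapl1, was higher in CD44+ than in naive cells (1.35 ± 0.14, adjusted p = 6.8e-06), and highest in PSGL1lo cells. Mean Dap ratios were 0.632 in naive, 1.07 in CD62Lhi PSGL1hi, 0.967 in CD62Llo PSGL1hi and 4.11 in PSGL1lo cells. The rise from CD62Llo PSGL1hi to PSGL1lo cells was 2.06 ± 0.17 (adjusted p = 2.99e-06). Tent5c, a poly(A) polymerase like Tent5a, was 0.65 ± 0.12 higher in CD44+ than in naive cells (adjusted p = 0.000959), and Tent5b was at -0.23 (adjusted p = 0.057). Ampd3, the AMP deaminase isoform of red blood cells, fell by 0.92 ± 0.09 (adjusted p = 3.24e-06), and Ampd2 was at -0.13 with no call. Nsg1 fell by 0.25 ± 0.07 (adjusted p = 0.0234), and Caly of the same family was at -0.11. Lypd6 (-0.13), Amigo1 (0.32) and Cd55b (-0.04), the second mouse gene for decay-accelerating factor, had no call.

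**Figure D4:**
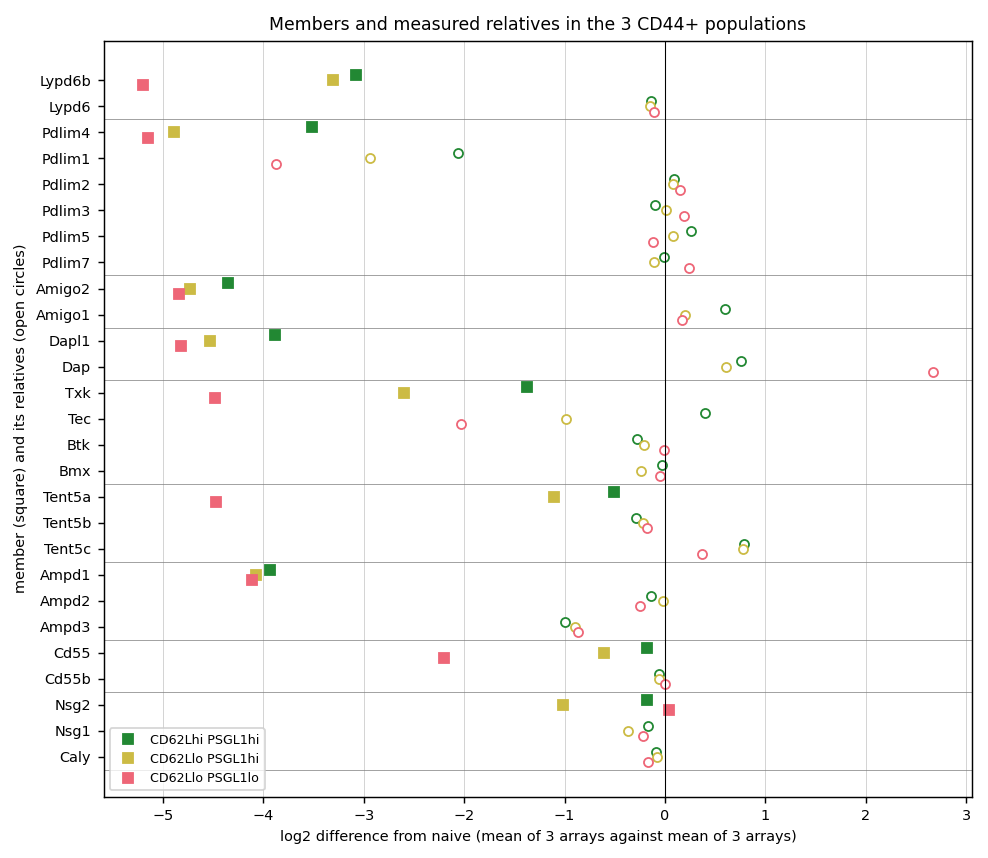
Log2 difference of each member (squares) and its measured relatives (open circles) from naive in the 3 CD44+ populations (colours), as the mean of 3 arrays against the mean of 3 arrays. Pdlim1 lies to the left as Pdlim4 does, Tec spreads from 0.40 to -2.03, Dap lies to the right of 0, and the squares were chosen for their place on this axis.

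Genes of the wider naive and central memory programme were mostly lower in CD44+ cells, as the members were. The list was chosen with earlier results of these data known, and the members for this contrast, so the likeness is no independent evidence. Of 18 listed genes 16 were measured, and in the mean of the CD44+ populations 12 were lower and 1 higher than in naive cells, with a median of -1.40 (12.6% and 11.7% of all genes, median -0.06). Lef1, a TCF/LEF factor of naive T cells, fell by 2.09 ± 0.08, and the repressor Bach2 fell by 2.16 ± 0.09. The chromatin organiser Satb1 fell by 3.56 ± 0.15, and alpha-actinin 1 (Actn1), a partner of Pdlim proteins, fell by 2.87 ± 0.16. These 4 are named for having the smallest p of the list in this comparison (limma adjusted p at most 6.65e-09). The gene that rose was Slamf6 (0.99 ± 0.11, adjusted p = 8.19e-06), which is outside that rule and is named after its value was seen.

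These genes did not share one order among CD44+ cells. Satb1 was lower in PSGL1lo than in CD62Llo PSGL1hi cells (-1.31 ± 0.19, adjusted p = 0.000342), in the direction of Lypd6b and Txk. Lef1 was higher there (0.58 ± 0.10, adjusted p = 0.0021), and Bach2 was at 0.16 ± 0.11 (adjusted p = 0.575). In this comparison 5 of the 16 genes were lower and 3 higher, against 5.64% and 3.97% of all genes.

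Lists for the pathways of Txk, Ampd1 and Cd55 were smaller. Of 11 measured genes of proximal T cell receptor signalling, the setting of Txk, 5 were higher and 1 lower in CD44+ than in naive cells, against 11.7% and 12.6% of all genes. Without naive replicate 2, or without naive replicate 3, 3 were called. The kinase Zap70 rose by 1.00 ± 0.10, the adaptor Lcp2 by 0.79 ± 0.11, the kinase Fyn by 0.73 ± 0.10 and the receptor chain Cd3e by 0.25 ± 0.07 (adjusted p = 2.99e-06, 0.000108, 5.35e-05 and 0.0165). The fifth was Cd3g (0.31), and the lower gene was Vav1 (-0.29), both named after their values were seen.

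Of 10 measured genes of the purine nucleotide cycle and salvage, the setting of Ampd1, 3 were lower and 1 higher in CD44+ cells, against 12.6% and 11.7% of all genes. Adenosine deaminase (Ada) fell by 2.22 ± 0.11 (adjusted p = 1.79e-09), and PSGL1lo against CD62Llo PSGL1hi cells gave -2.55 ± 0.13 (adjusted p = 2.14e-08). Adsl, whose product makes AMP in the same cycle, fell by 0.41 ± 0.10 (adjusted p = 0.00856), and the third was Ampd3, given above. Purine nucleoside phosphorylase (Pnp) rose by 0.86 ± 0.10 (adjusted p = 2.08e-05). Of 5 measured complement regulators, the setting of Cd55, 1 was lower, the complement receptor Cr2 at -0.57 ± 0.08 (adjusted p = 0.000106), where 12.6% of all genes were lower. Cd46 (-0.27), Cd59a (-0.14) and Cr1l (0.14) had no call.

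The genes most like the mean of the 9 members were found by the root mean square difference of log2 profiles over the 12 arrays, each profile centred on its own mean. The 8 closest among 16324 other genes were Col6a4 (0.19), Usp18 (0.22), Pdlim1 (0.22), Actn1 (0.28), Satb1 (0.28), St8sia6 (0.35), Fbxo17 (0.36) and Tdgf1 (0.40). Their mean naive ratios ran from 3.86 for St8sia6 to 9.44 for Satb1, and their mean PSGL1lo ratios from 0.333 to 0.735. The members themselves lay between 0.51 (Lypd6b) and 1.41 (Nsg2) from their own mean on this measure, farther than each of these 8 genes. The 8 were picked as the closest of 16324 genes, so nothing is read from that order.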

How the data were processed

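RNA was hybridised to 12 Affymetrix mouse expression arrays, 3 for each of 4 populations. The deposited values are linear ratios. Signals came from MAS5, per the submitters' processing notes, with version and scaling not given in the sources used here. Judged from its values, the authors' table holds each probe set over its own median across arrays: that median came within 0.002 of 1 in 99.7% of 45101 probe sets. Array medians lay between 0.967 and 1.022. Signal over background is unknown, so no filter on dim probe sets was possible, and the number of arrays limits the precision.

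Ratios were taken to log2 with no pseudocount. The 45037 probe sets other than controls were fitted with limma (version 3.58.1, under R 4.3.3), using lmFit and eBayes on all 12 arrays with 1 mean per population (8 residual and 5.54 prior degrees of freedom, median standard error 0.12). Tests were two-sided, with a call at an adjusted p under 0.05 (Benjamini-Hochberg, all fitted probe sets). Errors after ± are standard errors of the fit. Percentages of the naive signal compare means on the log2 scale. Summaries were made with Python 3.11.15 and pandas 2.3.3. Each of 18193 genes was represented by 1 probe set, preferring those free of a cross-hybridisation suffix, then those with a curated RefSeq target, then the lowest number. Entrez identifiers matched 18032 genes to RefSeq.

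Named genes were the members, the gate genes, all measured relatives, up to 4 genes of each list by smallest p against naive, and the 8 most like the members. Members and lists were chosen with earlier results of these data known. Genes without a probe set of a single named gene are not analysed here. Same-numbered arrays of CD44+ populations deviated together from their group means (correlations over probe sets from 0.138 to 0.451), and correlations with naive arrays ran from -0.0817 to 0.157. A replicate block was therefore fitted within the 9 CD44+ arrays. Other alternatives were quantile normalization, arrays centred on their median, a pseudocount of 0.05, only the groups compared, a robust prior, 1 probe set per gene, and leaving out each array. The fit was also run on simulated arrays with independent noise. That run left out the shared deviations of same-numbered arrays, so it cannot show how they bear on the p-values.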

Additional observations from a re-analysis of the deposited data

How the results depend on the processing

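Counts of called members stayed within 1.5 times their size in every alternative run. Without 1 array they ranged from 7 to 7, 2 to 3 and 7 to 9 of 13 probe sets for PSGL1lo against CD62Llo PSGL1hi, CD62Llo PSGL1hi against CD62Lhi PSGL1hi, and PSGL1lo against CD62Lhi PSGL1hi cells. With the replicate block they were 8, 4 and 9, and the block changed no call of a member beyond those named in the report. The median difference of the members from naive, -3.86, was -3.10 after quantile normalization and -3.91 to -3.81 without 1 array. The count of T cell receptor signalling genes called against naive was 3 to 6 without 1 array. Stable counts hid changes of single probe sets after quantile normalization, with values given above. For PSGL1lo against CD62Llo PSGL1hi cells Txk lost its call and the other Nsg2 probe set gained one. Dapl1 lost its call for PSGL1lo against CD62Lhi PSGL1hi cells, and the called differences of the chosen Nsg2 probe set grew. Signs turned for differences without a call. From CD62Llo PSGL1hi to PSGL1lo cells, quantile normalization gave 0.156 for Pdlim4 and 0.064 and 0.004 for the Amigo2 probe sets. Without PSGL1lo replicate 3 the Amigo2 values were 0.027 and 0.026 and Ampd1 was 0.041, and Ampd1 was 0.023 without CD62Llo PSGL1hi replicate 3. Over the fits without 1 array these differences ranged from -0.334 to 0.027 and from -0.095 to 0.026 for Amigo2 and from -0.108 to 0.041 for Ampd1. Ampd1 ranged from -0.305 to 0.106 for CD62Llo PSGL1hi against CD62Lhi PSGL1hi and from -0.337 to 0.075 for PSGL1lo against CD62Lhi PSGL1hi cells, above 0 without CD62Lhi PSGL1hi replicate 3. The cause was not tested. Ratios carry no brightness, so signal over background limits what can be said of the members where they were low.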

Other observations

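By the same measure of likeness, the nearest genes to each single member were looked up after the values had been seen, as a description. Adh1, an alcohol dehydrogenase gene, was nearest to Pdlim4 (0.53), Amigo2 (0.33) and Dapl1 (0.33), and second to Ampd1 (0.29) after the interferon-induced gene Oas2 (0.29). Mean ratios of Adh1 were 16.7 in naive arrays and 1.45, 0.821 and 0.918 in CD62Lhi PSGL1hi, CD62Llo PSGL1hi and PSGL1lo arrays. The second nearest gene to Amigo2 was Ngp (0.37), a neutrophil granule gene with a mean naive ratio of 18.7. Satb1 was nearest to Lypd6b (0.32) and Col6a4 to Txk (0.51).

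Tent5a and Cd55 had other neighbours. Rras2, a Ras-related GTPase gene, was nearest to Tent5a (0.33), with mean ratios of 1.93 in naive, 1.04 and 0.950 in the PSGL1hi populations and 0.106 in PSGL1lo arrays. Gpd2, which encodes mitochondrial glycerol phosphate dehydrogenase, was nearest to Cd55 (0.23), at 1.48, 1.13, 0.847 and 0.326 in the same order.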
